A study of Lachancea kluyveri with 12 samples.

Results

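Sef1 regions bound in both media, outside the left 1 Mb of chromosome C, were examined in the yeast Lachancea kluyveri. Binding intervals of the 6 ChIP-seq lists, 3 from YPD and 3 from YPGly, were merged where they shared 1 bp or more, and a region was kept when every one of the 6 lists held an interval in it. Of 1343 merged regions, 263 met this condition. The 63 of them whose centre lay on the first 1 Mb of chromosome C were set aside, which left 200 regions on 8 chromosomes. The members were therefore chosen by being called in every library, and regions undetected in 1 medium, where the difference between media may be largest, are not among them.

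All libraries came from 1 strain, SkSef1TAPNB1-1, whose Sef1 protein is fused to TAP, a handle for affinity purification that lets cross-linked DNA be recovered with the protein. Cells from an overnight YPD culture were diluted to 0.2 OD600 per ml into YPD, a rich medium with glucose, or into YPGly, the same rich base with glycerol, and kept for 5.5 h at 30 °C. Fixation in 1% formaldehyde lasted 20 min and, by the protocol, was done at a density of 1 OD600 per ml for the YPD cultures but 0.5 for those in YPGly. The growth phase labels of the YPGly samples give a different density for each sample, and this disagreement was not resolved. There were 12 samples in 4 groups of 3 (ChIP and input DNA of each medium), the 3 of a group being biological replicates by the series text. The binding lists were made from each ChIP library against its input, so the values below are ratios without read counts. The study's methods state 1 approximate sequencing depth and none per library. Libraries of the untagged control strain were not analysed here.

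Sef1 is a zinc cluster protein, a fungal class of transcription factors that bind DNA through a zinc-coordinating domain. In Candida albicans it is known as an activator of iron uptake genes. Glucose can be fermented by yeast cells, whereas glycerol has to be respired in mitochondria. Respiration draws its electrons from the tricarboxylic acid (TCA) cycle, which oxidises acetyl groups, and passes them along the respiratory chain. Genes are named below by their Saccharomyces cerevisiae orthologs as assigned in the study's peak-to-gene table, and the roles given are those known in S. cerevisiae. That table placed 199 of the 200 regions at a peak and assigned a gene to 188, of which 34 had 2 genes, so that 211 distinct genes were represented. For 17 regions the assigned gene had a locus tag but no ortholog name, and 12 had no assigned gene.

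The lists behind these regions differed in length. They held 442 to 479 positions per YPD library and 935 to 999 per YPGly library, and the members took 42 to 45.5% of the YPD positions and 20.3 to 21.6% of the YPGly positions. The value used for a region in a library is the fold enrichment of ChIP over input at its highest-scoring position there. Over the 200 regions, which share their libraries, log2 folds of replicates correlated at 0.995 to 0.997, and those of libraries from different media at 0.785 to 0.794. The coefficient of variation of a region between replicates had a median of 5.02% in YPD and 7.84% in YPGly. In YPD it was much the same in the 50 weakest and the 50 strongest regions, at 5.27% and 5.02%.

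Most of the 200 regions were more enriched in YPGly, and a smaller set was more enriched in YPD. The median fold over the members was 3.29, 3.1 and 3.32 in YPD replicates 1, 2 and 3, and 6.03, 5.33 and 5.28 in the YPGly replicates. All 3 YPGly libraries thus lay above all 3 YPD libraries. The difference of the medians was 0.77 on the log2 scale, from 1.69 ± 0.05 to 2.47 ± 0.11 (SD, n = 3), and the exact permutation test (two-sided) gave p = 0.1, the lowest value open to 3 libraries against 3. Over all 263 regions, most of which are the members, the difference was 0.78. The shift in median fold of the 63 chromosome C regions, chosen by the same rule, differed from that of the members by 0.08 (exact permutation p = 0.20). Taken region by region, their median log2 ratio was 0.93, against 0.60 for the members, and this contrast was not tested. The rise in YPGly was thus not shown to be particular to the members. A more efficient precipitation in YPGly cannot be told apart from more Sef1 on the DNA.

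Each region was tested by limma on log2 fold over all 263 regions, with Benjamini-Hochberg adjustment and a threshold of 0.05. Of the 200 members, 141 were higher in YPGly and 30 higher in YPD, while 29 did not pass. Among all 263 regions, 72.6% were called higher in YPGly and 13.3% higher in YPD, so the members' shares were near the background. The members make up most of that background. Of the 63 chromosome C regions, 50 were higher in YPGly and 5 higher in YPD. The 3 folds of YPGly lay above the 3 of YPD with no overlap in 141 members, and below them in 30, against 72.6% and 12.9% of all regions. After each library was centred on its median over the 263 regions, 74 members were relatively higher in YPGly and 100 relatively higher in YPD, against 39.2% and 47.9% of all regions. Centring takes the same 0.78 off every log2 ratio, which brought 67 members from above 0 to below it. Calls and ratios below are without centring unless stated. The spread that limma estimated was the same for all regions, with an SD of 0.11 on the log2 scale, and every log2 ratio therefore carries an SE of 0.09.

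**Figure D1:**
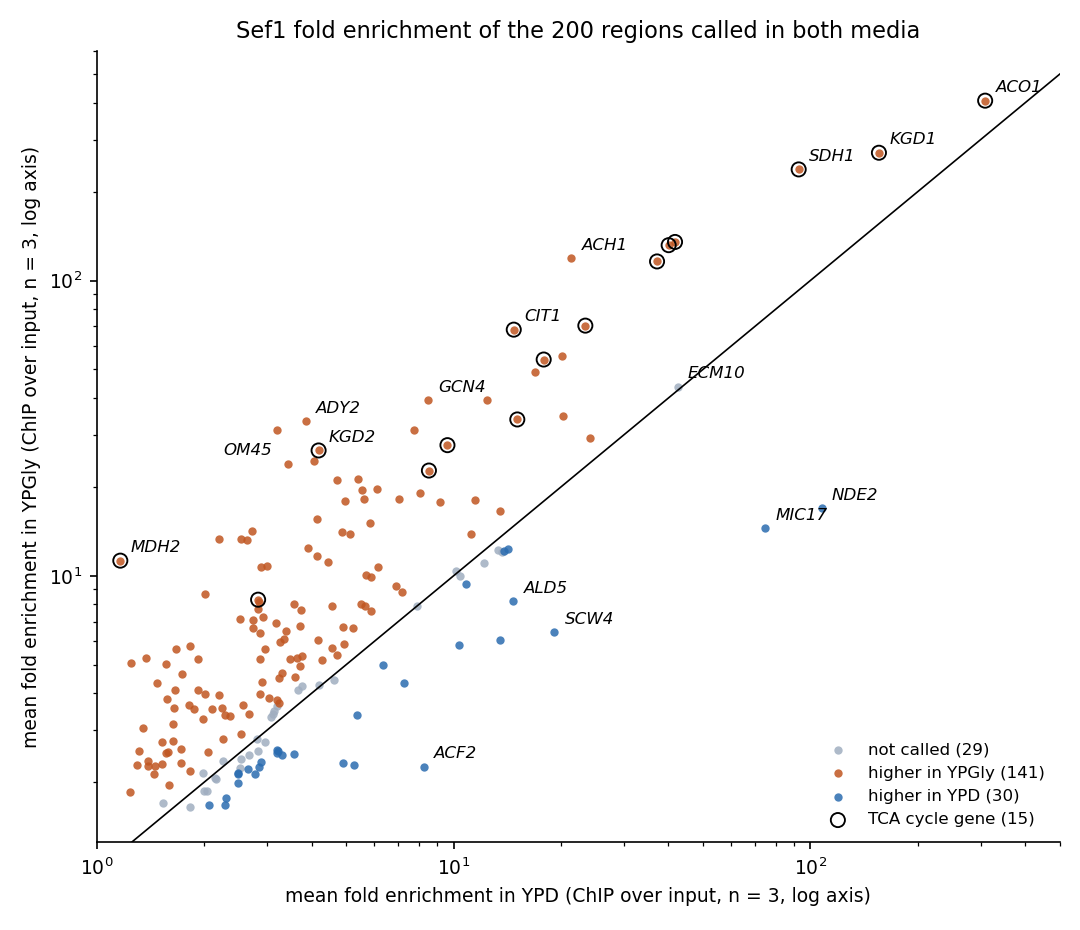
Mean fold enrichment of each of the 200 regions in YPD (x axis) and YPGly (y axis), both as ratios of ChIP over input on log axes, with n = 3 libraries per medium. The line marks equal folds, colours mark the limma calls without centring (141 higher in YPGly, 30 higher in YPD, 29 not called), and circles mark the 15 regions assigned to TCA cycle genes, which all lie above the line, while NDE2 and MIC17 lie far below it.

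The ratio between media varied widely from region to region. It ranged from -2.66 to 3.28 on the log2 scale, with a median of 0.60. In 69 regions the fold was at least 2 times higher in YPGly, and in 7 it was at least 2 times higher in YPD. The spread of log2 folds over the members was wider in YPGly, with SDs of 1.55, 1.57 and 1.56 in the 3 libraries, than in YPD, with 1.39, 1.37 and 1.36 (difference 0.19, exact permutation p = 0.1, the smallest possible). Folds of 10 or more were reached by 32, 33 and 33 members in the YPD libraries and by 64, 59 and 63 in the YPGly libraries. Folds under 2 were seen in 38, 42 and 38 members in YPD and in 7, 17 and 9 in YPGly.

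The median ratio followed no steady order with the strength of a region in YPD. The members were ordered by mean YPD fold and cut into 4 groups of 50. The weakest group, with YPD folds of 1.16 to 2.26, had a median log2 ratio of 0.75, and the next, from 2.26 to 3.23, had 0.28. The group from 3.24 to 5.87 had 0.57 and the strongest, from 5.87 to 309, had 0.54. After centring these medians were -0.03, -0.50, -0.21 and -0.24. The weakest group thus exceeded the strongest by 0.21, and this difference was 0.21, 0.34 and 0.14 when each YPGly library was used alone. It was 0.37 without YPD replicate 2 and turned to -0.035 in the 164 members whose positions in the media lay within 20 bp, so its direction is not settled. Over the 200 regions the Spearman rho of the log2 ratio with YPD fold was -0.07, and it was -0.06 when the order came from YPD replicate 1 and the ratio from YPD replicates 2 and 3. The order by YPGly fold gave a rho of 0.58, a value in which the ordering measure is also part of the ratio. Calls higher in YPD numbered 1, 12, 5 and 12 from the weakest to the strongest group, against 13.3% of all 263 regions. After centring they numbered 16, 33, 26 and 25. The lowest log2 ratio was -0.29 in the weakest group and -2.66 in the strongest. Every member had to be called in YPGly too, so a region weak in YPD could not fall far and remain a member.

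**Figure D2:**
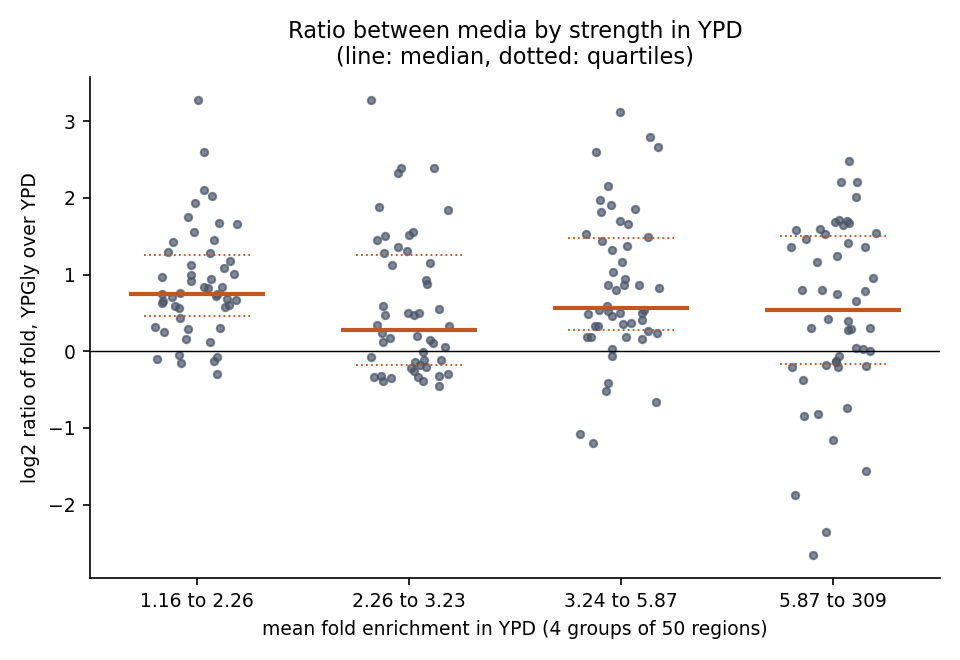
Log2 ratio of fold enrichment (YPGly over YPD, y axis) of the 200 regions in 4 groups of 50 by mean YPD fold (x axis), each point 1 region. The medians (thick lines) were 0.75, 0.28, 0.57 and 0.54 from the weakest to the strongest group, and the distance between the quartiles (dotted) was widest in the strongest group, from -0.17 to 1.51.

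Within the strongest group the regions went both ways. Of the 34 members with a mean YPD fold of 10 or more, 19 were higher in YPGly, 9 were higher in YPD and 6 did not pass. After centring the balance turned, with 12 higher in YPGly, 19 lower and 3 that did not pass. The 10 of these assigned to TCA cycle genes were all higher in YPGly, with log2 ratios of 0.39 to 2.21. The other 24 had 9 regions higher in YPGly, 9 higher in YPD and 6 that did not pass, with a median of -0.10. After centring, 4 were higher, 18 lower and 2 did not pass. They include regions at the starts of chromosomes A (55 to 258), B (20 to 209) and E (21 to 210). Adjacent regions on chromosome C, 1251724 to 1251913 and 1252190 to 1252379, are among them too. These regions had similar values, with YPD means of 12.1 to 14.2, YPGly means of 11 to 12.3 and log2 ratios of -0.13 to -0.21. Whether they are independent of each other was not tested.

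The TCA cycle genes supplied most of the 10 strongest members in each medium. Among members with a mean fold of 10 or more they held 10 of 34 in YPD and 14 of 62 in YPGly. Of the 10 members with the highest mean fold, 6 carried a TCA cycle gene in YPD and 8 in YPGly, and 6 members were in both sets of 10. In all, 15 of the 24 genes of the TCA list had a region here, each with 1 region. All 15 regions were higher in YPGly, with a median log2 ratio of 1.59, against 0.60 for the 200 members and 0.66 for the 263 regions tested. With centred libraries, 13 stayed higher in YPGly, KGD1 did not pass (log2 ratio 0.02) and ACO1 was lower in YPGly (-0.39). The list was drawn up with earlier results of these data known and is named by the study for these samples, so its count is a description and not independent evidence of a direction.

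ACO1, which encodes aconitase, the enzyme that isomerises citrate, had the strongest region in every library. Its region on chromosome H, 2071060 to 2071258, had folds of 316.4, 302.5 and 308 in YPD against 390.7, 392 and 437 in YPGly. The YPGly values lay above all YPD values, but the log2 ratio of 0.39 (SE 0.09, limma adjusted p = 2.5e-05) was the smallest of the TCA list.

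KGD1 and KGD2 encode the E1 and E2 components of the 2-oxoglutarate dehydrogenase complex, and LPD1 its dihydrolipoamide dehydrogenase. The KGD1 region on chromosome E, 729243 to 729432, was the second strongest, with 172.7, 138.9 and 155.4 in YPD against 276.6, 259.3 and 276.6 in YPGly. The KGD2 region on chromosome H, 1342558 to 1342749, had 4.06, 4.25 and 4.24 in YPD and 29.3, 23.6 and 26.8 in YPGly. Genes of the same complex thus had very different folds in YPD, and their log2 ratios were 0.80 for KGD1 and 2.66 for KGD2. LPD1 lay between them, with a fold of 8.53 ± 0.58 in YPD against 22.7 ± 2.11 in YPGly (SD, n = 3) and a log2 ratio of 1.41.

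The 4 subunits of succinate dehydrogenase, which belongs to both the TCA cycle and the respiratory chain, were all represented. SDH1 encodes the flavoprotein subunit, and its region on chromosome G, 979670 to 979859, is also assigned to AVT3. Folds there were 99, 87.9 and 91.3 in YPD and 227.5, 253.5 and 232.4 in YPGly, a log2 ratio of 1.36. SDH4 had 41.7 ± 1.81 in YPD and 135.1 ± 3.95 in YPGly, SDH2, the iron-sulfur subunit, 37.2 ± 2.61 and 116 ± 4.58, and SDH3 9.61 ± 0.46 and 27.7 ± 2.83 (SD, n = 3). Their log2 ratios of 1.36 to 1.69 fell in a narrow band although their YPD folds did not.

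IDH1 and IDH2 encode the subunits of the NAD-dependent isocitrate dehydrogenase. IDH2, on chromosome G, 290494 to 290683, had 40.2, 39 and 41 in YPD and 127.1, 131.8 and 136.3 in YPGly. In YPGly its mean of 131.7 ± 4.56 did not stand apart from that of SDH4 by more than the replicate spread. IDH1 had 15.1 ± 1.21 in YPD and 33.8 ± 2.27 in YPGly, with a log2 ratio of 1.17 against 1.72 for IDH2.

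CIT1 encodes mitochondrial citrate synthase, the entry enzyme of the cycle. Its region on chromosome D, 761725 to 761925, had 15, 13.7 and 15.6 in YPD and 75.2, 63.4 and 65.9 in YPGly, a log2 ratio of 2.21. FUM1, encoding fumarase, had 23.4 ± 0.56 and 70.3 ± 4.6, and MDH1, the mitochondrial malate dehydrogenase, 17.9 ± 1.24 and 54 ± 4.34. FUM1 and MDH1 shared a log2 ratio of 1.59. LSC2, a subunit of succinyl-CoA ligase, was the weakest in YPGly, with 8.3 ± 0.24 against 2.83 ± 0.18 in YPD.

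MDH2, the cytosolic malate dehydrogenase, was the exception in position. Its region on chromosome C, 1138798 to 1139087, shared with TRM13, had the lowest mean YPD fold of all 200 members. The folds were 1.14, 1.15 and 1.2 in YPD and 11.6, 11.1 and 11 in YPGly. The log2 ratio of 3.27 was the largest of the list. The mean positions of the media lay 98.7 bp apart in it, so the folds may belong to different sites that were merged.

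**Figure D3:**
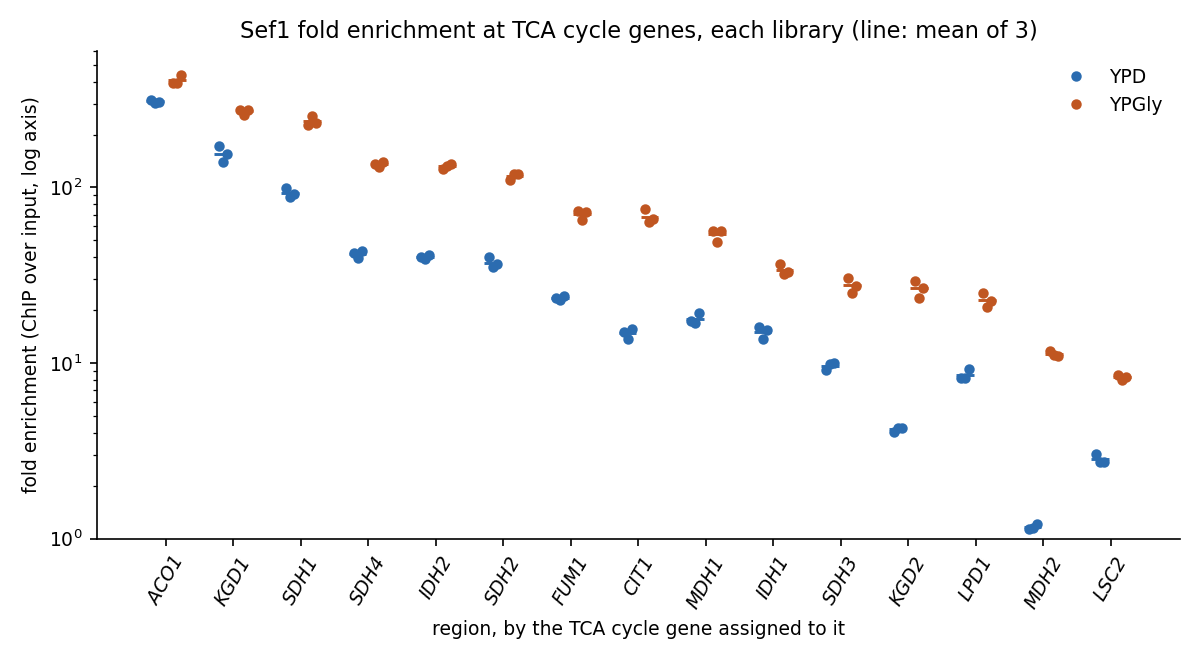
Fold enrichment (ChIP over input, log y axis) in each of the 6 libraries at the 15 regions assigned to TCA cycle genes (x axis, ordered by YPGly mean), with points for libraries and lines for means of 3. All YPGly points lie above all YPD points of the same region, from ACO1 (309 and 406.6 on average) to LSC2 (2.83 and 8.3).

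The regions more enriched in YPD included some of the strongest in that medium. NDE2, which encodes an external NADH dehydrogenase of the mitochondrial inner membrane, had the third highest YPD fold. On chromosome E, 434125 to 434316, it had 120.4, 102.7 and 99.4 in YPD and 18.2, 17 and 15.8 in YPGly, a ratio of 6.32 in favour of YPD. MIC17, encoding a protein of the mitochondrial intermembrane space, had 78, 72.5 and 72.9 in YPD and 16.2, 13.1 and 14.2 in YPGly at chromosome E, 128701 to 128890, a ratio of 5.15. In neither region did the media overlap, and these were the only 2 members with a log2 ratio under -2 (-2.66 and -2.36). A second region assigned to NDE2, on chromosome D, 798417 to 798617, was weak in both media, with 2.06 ± 0.29 in YPD and 1.68 ± 0.19 in YPGly (log2 ratio -0.29, limma adjusted p = 0.0017). This call rested on YPD replicate 3, without which the log2 ratio was -0.18 (limma adjusted p = 0.11), and it did not pass with the region's own spread (adjusted p = 0.14).

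ACF2, SCW4 and EXG1 were also among the 10 members most shifted toward YPD. SCW4 and EXG1 are on the cell wall list described below, and ACF2 is not. Of the 10 regions of that list, 4 were higher in YPD, 4 were higher in YPGly and 2 did not pass. The shares among all 263 regions were 13.3% and 72.6%. ACF2, encoding an endoglucanase, had 8.14, 7.93 and 8.66 in YPD and 2.41, 2.26 and 2.09 in YPGly at chromosome D, 213827 to 214016. The SCW4 region on chromosome B, 327235 to 327424, also assigned to RPA135, had 21.7, 17.7 and 18.1 in YPD and 6.86, 6.39 and 6.09 in YPGly. EXG1, encoding an exoglucanase, had 4.9 ± 0.13 in YPD and 2.32 ± 0.1 in YPGly. Their log2 ratios were -1.87, -1.57 and -1.08, and none of the 3 had overlapping media.

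The other 5 of these 10 were of mixed function. YLH47, encoding a mitochondrial inner membrane protein, had 13.4 ± 0.38 in YPD and 6.04 ± 0.77 in YPGly, and ALD5, a mitochondrial aldehyde dehydrogenase, 14.7 ± 0.66 and 8.18 ± 0.27. BPT1, a vacuolar ABC transporter, had 10.3 ± 0.33 and 5.84 ± 0.52. CRM1/UGA4, a region assigned to genes for a nuclear export receptor and an amine permease, had 5.26 ± 0.28 and 2.3 ± 0.13, with the media's mean positions 114.3 bp apart. A region with no assigned gene on chromosome H, 2061520 to 2061736, had 7.25 ± 0.46 and 4.34 ± 0.1. Log2 ratios of these 5 regions were -1.16, -0.84, -0.82, -1.20 and -0.74.

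The largest ratios toward YPGly were at a mitochondrial membrane gene, MDH2 and an acetate transporter gene. OM45, encoding a protein of the mitochondrial outer membrane, had a region on chromosome E, 773308 to 773497, with 2.98, 3.06 and 3.57 in YPD against 34.5, 30.2 and 28.7 in YPGly. Its log2 ratio of 3.28 was the highest of the 200 members. ADY2, encoding an acetate transporter, had 3.86, 3.63 and 4.07 in YPD and 33.5, 33 and 33.8 in YPGly at chromosome D, 774170 to 774359, a log2 ratio of 3.12. ACH1, a mitochondrial CoA transferase that acts on acetate, had 22.4, 19.5 and 22.2 in YPD and 124.9, 112.2 and 120.8 in YPGly at chromosome H, 1737730 to 1737925. ACH1 was the strongest region in YPGly outside the TCA list, and its log2 ratio was 2.48.

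In all, 17 members had a log2 ratio over 2, and they were not only mitochondrial or acetate genes. The region of MDJ1, a mitochondrial co-chaperone, and HSP12, a small stress protein, had 2.19 ± 0.14 in YPD and 13.3 ± 0.93 in YPGly. BUB2, a spindle checkpoint gene, had 4.06 ± 0.26 and 24.5 ± 1.32. GCN4, the activator of amino acid biosynthesis genes, had 8.12, 8.53 and 8.79 in YPD and 40, 40.5 and 37.4 in YPGly. The log2 ratios were 2.60, 2.59 and 2.21, and the media overlapped in none of these.

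Genes for acetate, glycerol and gluconeogenic steps were mostly higher in YPGly, as were 72.6% of all 263 regions. That share and the 13.3% higher in YPD are the background for the counts of this list and those below. With centred libraries the background was 39.2% and 47.9%. The list had 10 regions at 8 of its 20 genes, of which 9 were higher in YPGly and 1, ALD5, was higher in YPD. The median log2 ratio was 1.19, and with centred libraries 7 were higher and 2 lower in YPGly. Besides ADY2 and ACH1 at the top, the lowest after ALD5 was the region of POX1, a peroxisomal acyl-CoA oxidase, and CHC1, with 1.73 ± 0.02 in YPD and 2.33 ± 0.08 in YPGly (log2 ratio 0.43, but -0.35 after centring). SPS19, a peroxisomal enzyme of fatty acid breakdown, had 20.1 ± 0.98 and 55.5 ± 3.09 at chromosome D, 960255 to 960444, among the 10 strongest regions in YPGly.

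Genes for mitochondrial membranes and carriers held the highest ratio of the 200 members and the second lowest. The list had 16 regions at 12 of its 22 genes, with 11 higher in YPGly, 3 higher in YPD and 2 that did not pass. The median log2 ratio was 1.02, over a range from -2.36 for MIC17 to 3.28 for OM45. After centring, 8 were higher and 7 lower in YPGly. PET9, the major ADP/ATP carrier, was among the higher ones, with 2.64, 2.86 and 2.68 in YPD against 14.6, 14 and 14 in YPGly at its stronger region on chromosome B, 582372 to 582565.

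The respiratory chain and ATP synthase were sparsely represented. Only 4 of the 38 listed genes had a region, in 5 regions, of which 3 were higher in YPGly and the 2 of NDE2 higher in YPD, the weak one only with YPD replicate 3. The higher ones were COX26, a cytochrome c oxidase component, with 1.57 ± 0.03 in YPD and 5.01 ± 0.26 in YPGly, COR1, a subunit of the cytochrome bc1 complex, in a region shared with ECM13, with 3.91 ± 0.08 and 12.4 ± 0.46, and CYC7, a cytochrome c isoform. Log2 ratios were 1.68, 1.67 and 0.41. CYC7 was lower in YPGly after centring, when 2 regions of the list were higher and 3 lower.

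Iron-sulfur assembly and iron uptake had 2 regions at 2 of 26 listed genes, and they moved in opposite directions. ISU1, encoding the scaffold on which iron-sulfur clusters are built, had 12.8, 12.3 and 12.2 in YPD and 39.8, 39.3 and 39.3 in YPGly at chromosome H, 634129 to 634318. ISA1, another iron-sulfur assembly factor, had 3.29 ± 0.18 in YPD and 2.47 ± 0.23 in YPGly. The log2 ratios were 1.67 and -0.42 (limma adjusted p = 7.9e-06 for ISA1). No region among the 200 was assigned to a listed iron transporter or reductase.

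Most chaperone genes differed little between media. Of 10 regions at 10 listed genes, 8 were higher in YPGly, 1 higher in YPD and 1 did not pass, with a median log2 ratio of 0.31, but 2 were higher and 7 lower after centring. The region of ECM10, a mitochondrial Hsp70, shared with TAH11, was strong and alike in the media, with 45.2, 41.1 and 41 in YPD against 49, 39 and 43.1 in YPGly. The values of the media overlapped, and the log2 ratio of 0.04 (SE 0.09) did not pass (limma adjusted p = 0.70). HSP60, the mitochondrial chaperonin, had 24.1 ± 1.29 and 29.3 ± 2.9 at its stronger region, and its co-chaperonin HSP10 had 9.15 ± 0.58 and 17.7 ± 1.31. BTN2 was the 1 region higher in YPD, with 2.3 ± 0.18 and 1.77 ± 0.26, but it did not pass with the region's own spread (limma adjusted p = 0.057).

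Regions of the glycolysis list were mostly weak and all higher in YPGly without centring. The list is wider than the enzymes of the pathway. It takes in SUC2, PFK26, and RGT1 and TYE7, which are also in the regulator list. The 8 regions had YPD means of 1.48 to 6.14 and YPGly means of 3.28 to 10.7, both highest at RGT1. Their median log2 ratio was 0.76. PFK26, encoding 6-phosphofructo-2-kinase, and FBA1, the aldolase, had the highest log2 ratios, 1.55 and 1.45. PFK1, a phosphofructokinase subunit, and TYE7, an activator of glycolytic genes, were lowest, both at 0.59, and both were lower in YPGly after centring (-0.19 each). On the centred scale 3 regions of the list, those of SUC2, FBA1 and PFK26, were higher and 2 lower.

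Ribosomal protein genes had regions that were all weak in YPD. Their 15 regions had YPD means of only 1.46 to 3.77, with YPGly means of 2.27 to 7.71 and log2 ratios of -0.52 to 1.45. Of these, 11 were higher in YPGly, 1 was higher in YPD and 3 did not pass, and the median log2 ratio was 0.50. On the centred scale 3 were higher and 11 lower. RPS26A and RPS7A had the highest log2 ratios, 1.45 and 1.36, and in both the mean positions of the media lay apart, by 71.3 and 45 bp. RPS24A was higher in YPD, with 3.56 ± 0.14 and 2.49 ± 0.19, and the RPL26B/TIM21 region did not pass, with 2.95 ± 0.05 and 2.74 ± 0.1 (limma adjusted p = 0.24), although it did with its own spread (0.039) and after centring (log2 ratio -0.89).

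Cell wall genes were the only list with a median log2 ratio below 0 without centring, at -0.11. After centring the median was -0.89, and those of the respiratory chain (-0.37), iron (-0.16), glycolysis (-0.02), ribosomal protein (-0.28), chaperone (-0.47) and regulator (-0.20) lists were below 0 too. Its 10 regions at 9 genes had 4 higher in YPGly, 4 higher in YPD and 2 that did not pass, and with centring 3 were higher and 6 lower. SCW4 and EXG1 were at one end. ZEO1 and TOS1 were at the other, with 2.87 ± 0.06 and 1.93 ± 0.17 in YPD against 6.38 ± 0.68 and 4.1 ± 0.14 in YPGly. Positions in the ZEO1 region lay 83.7 bp apart between media.

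Transcription regulators had 13 regions, 12 of them higher in YPGly and 1 higher in YPD, with a median log2 ratio of 0.58. After centring 3 were higher and 8 lower. After GCN4 the highest ratio was at the region assigned to PET9 and to TBS1, which encodes a zinc cluster protein. It had 1.66 ± 0.09 in YPD and 4.1 ± 0.42 in YPGly (log2 ratio 1.30). USV1 had 11.2 ± 0.58 and 13.9 ± 1.36, with a log2 ratio of 0.31 that became -0.48 after centring. BAS1, a regulator of purine and histidine genes, was the region higher in YPD, with 5.35 ± 0.38 and 3.37 ± 0.05.

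**Figure D4:**
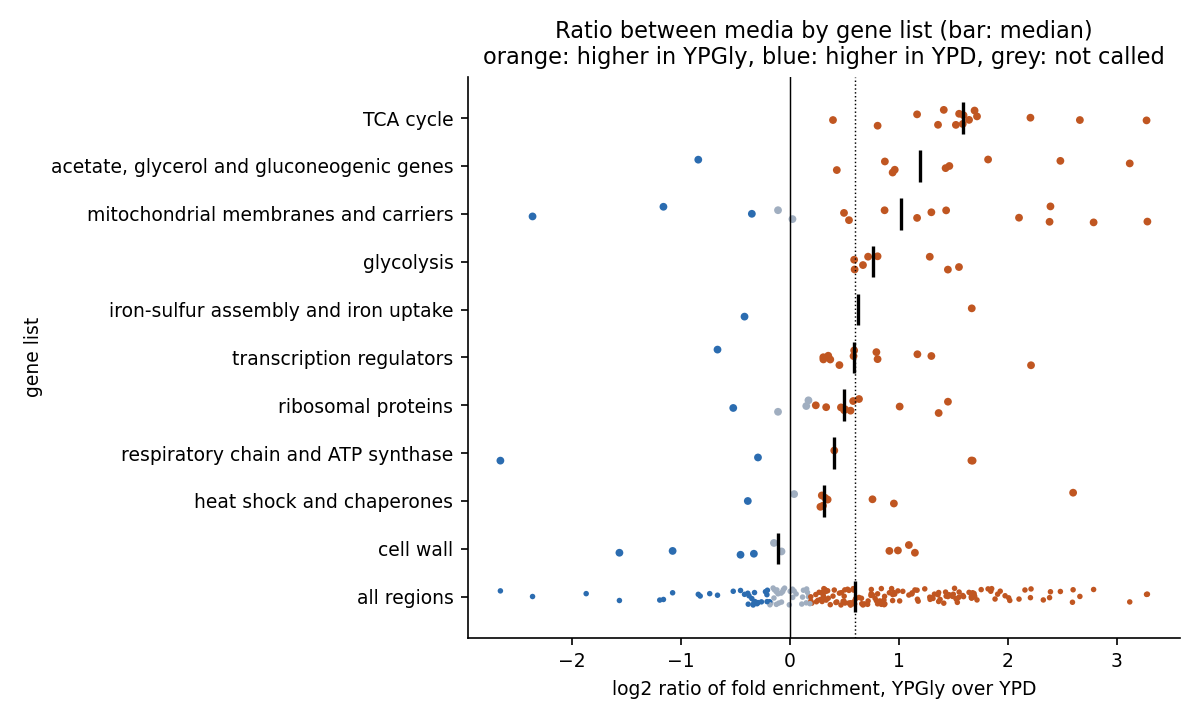
Log2 ratio of fold enrichment (YPGly over YPD, x axis) of the regions assigned to each gene list and of all 200 members (y axis), each point 1 region coloured by its limma call without centring. Black bars mark medians, from -0.11 for cell wall genes to 1.59 for the TCA cycle, and the dotted line marks the median of all members, 0.60.

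Neighbouring regions did not always respond alike. There were 20 pairs of adjacent members with centres within 1000 bp, which involved 37 members. Of these pairs, 8 had both regions higher in YPGly, 2 had 1 region called in each direction, and in 5 the log2 ratios differed by more than 1. After centring, 6 pairs had both regions higher in YPGly and 4 had calls in opposite directions, while others, such as the pair at HSP60, had both regions lower. Of all 200 members, 141 were higher in YPGly and 30 higher in YPD without centring. The median difference within a pair was 0.85. How far members that are not neighbours differ was not measured, so neighbours are not shown to differ more or less than other members. Each pair shares its libraries, so a shift common to a library cancels in the difference within a pair. By the study's methods the sheared fragments were long enough to span close regions, and how far pairs shared reads was not tested.

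The clearest case lay at MIC17 and AIM34 on chromosome E. From left to right, the MIC17 region had a log2 ratio of -2.36, the first AIM34 region, at 129048 to 129268, 0.02, and the second, at 129561 to 129764, 2.79. The middle region had 9.99, 10.4 and 10.2 in YPD and 11.5, 8.98 and 10.7 in YPGly, with overlapping media. The right region had 3.37, 3.64 and 3.3 in YPD and 26.3, 20.4 and 24.8 in YPGly. In YPD the fold dropped from left to right, whereas in YPGly the right region was the highest and the middle one the lowest. Centres were 357.8 bp and 504.7 bp apart, and the log2 ratios of neighbours differed by 2.39 and 2.77 (two-sided exact permutation p = 0.1 for each, the smallest possible).

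At the strong NDE2 region the nearest members to the right, both assigned to SAKL0E05324g and farther than 1000 bp away, did not share the difference. They had 4.28 ± 0.12 and 3.08 ± 0.25 in YPD and 5.2 ± 0.84 and 3.32 ± 0.25 in YPGly, with log2 ratios of 0.27 and 0.11. At CCW12, encoding a cell wall mannoprotein, the left region on chromosome H, 1403945 to 1404149, had 2.01 ± 0.19 in YPD and 3.98 ± 0.26 in YPGly. The second CCW12 region, whose centre lay 375.5 bp away, and the HOG1 region beside it did not pass, with log2 ratios of -0.08 and -0.12. At PMC1, a vacuolar calcium pump gene, 3 adjacent regions on chromosome H had log2 ratios of -0.23, 0.60 and -0.26, the first 2 with no assigned gene, and these gave both pairs called in opposite directions. Neither pair was called so after centring, when the middle region did not pass, and the 4 opposite pairs were then others, among them the pair of AIM34 and that of CCW12.

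Pairs with both regions higher in YPGly also differed in size. At PET9 the regions 385.2 bp apart had log2 ratios of 1.30 and 2.38, and at OM45 those 276.7 bp apart had 2.39 and 3.28 (exact permutation p = 0.1 for both differences). The regions of a pair were about alike at HSP60, at 0.30 and 0.28, where the exact permutation p for the difference was 0.70.

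**Figure D5:**
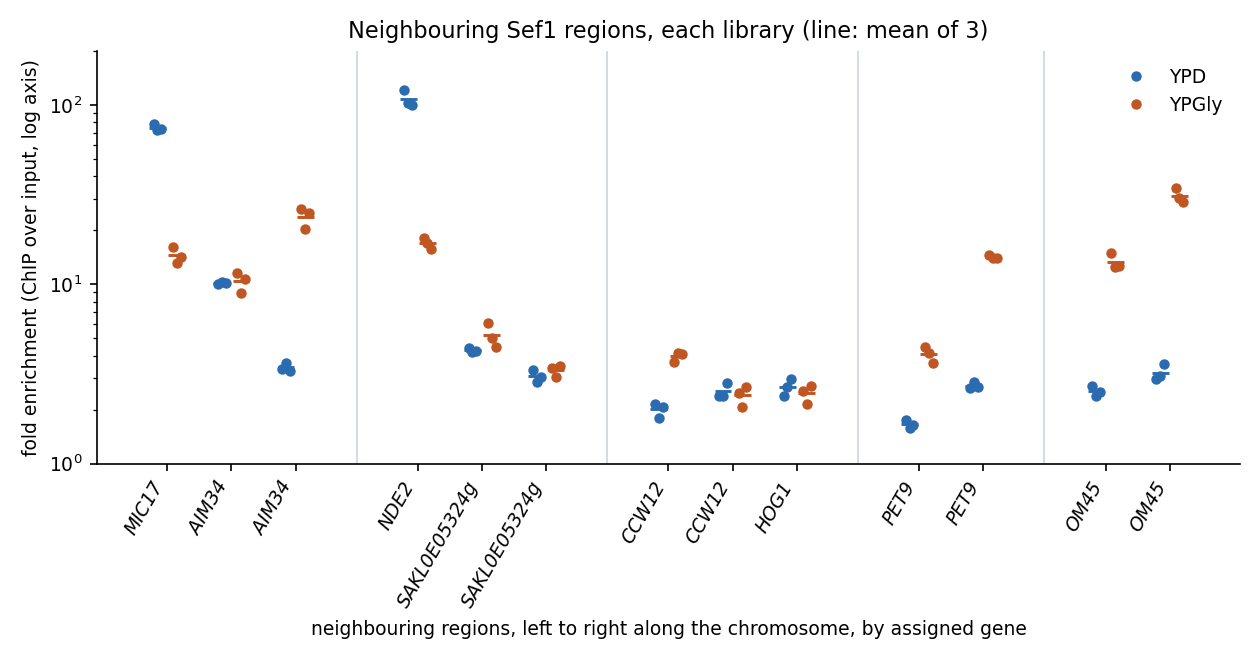
Fold enrichment (ChIP over input, log y axis) in each library for 5 sets of neighbouring regions (x axis, left to right along the chromosome), with points for libraries and lines for means of 3. At MIC17 and AIM34 the YPD points fall from left to right (74.5, 10.2 and 3.44 on average) while the YPGly mean is highest on the right (14.5, 10.4 and 23.8).

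Binding positions were mostly the same in the media. The mean position of the 3 YPGly libraries lay a median of 7 bp from that of the 3 YPD libraries, and 123 of the 200 members had a distance of 10 bp or less. In the 50 strongest regions by YPD fold the median distance was 4 bp, and in the 50 weakest 10.2 bp. Within a medium the 3 positions of a region spanned a median of 7 bp in YPD and 9 bp in YPGly. In 36 members the media were more than 20 bp apart, up to 179.7 bp, and 4 members held more than 1 position in some list. Regions measured 190 to 463 bp, with a median of 195 bp.

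The members were compared with the 63 shared regions of the first 1 Mb of chromosome C. Those regions had lower folds, with medians of 2.46, 2.33 and 2.58 in YPD against 4.63, 4.38 and 4.29 in YPGly. Their median log2 ratio by region was 0.93, against 0.60 for the members. In log2 they lay 0.40 ± 0.03 below the members in YPD and 0.32 ± 0.05 below in YPGly (SD, n = 3). The gap was 0.08 smaller in YPGly, which did not hold up against the libraries (exact permutation p = 0.20, where 0.1 is the smallest possible). It was 0.14 (exact permutation p = 0.1) with an overlap of at least 100 bp and 0.03 (p = 0.40) at a false discovery rate up to 0.01. By chromosome, the members' median log2 ratio ran from 0.41 on chromosome E to 0.86 on chromosome G, with 6 members on the rest of chromosome C and 43 on chromosome H. After centring it ran from -0.37 to 0.08 and was above 0 on chromosomes A and G only.

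Values near the limits of the rule were as follows. Among the members, the largest false discovery rates of a single list were those of SAKL0F02948g (0.0489), the second CCW12 region (0.0453) and the PET9/TBS1 region (0.0424), with YPD means of 1.34, 2.53 and 1.66. Just outside, 31 regions were called in 5 of the 6 lists. Of these, 18 were missing from a YPD list and 13 from a YPGly list, and their median folds were 2.23 in YPD and 2.73 in YPGly, against 3.24 and 5.51 for the members. At the 1 Mb limit, the last region set aside, at HHF1 (971408 to 971636), had 5.76 in YPD and 7.33 in YPGly, and the first member, at SAKL0C11638g (1046723 to 1046912), had 1.67 and 5.63. The 256 regions called in all YPGly and no YPD libraries outside that stretch had a median YPGly fold of 2.35, and 11 of them reached 10.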

How the data were processed

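By the methods of the study, the authors cleaned single-end reads (FastQC 0.11.8, Trimmomatic 0.36), mapped them to the L. kluyveri CBS 3082 genome (Bowtie2 2.3.3) and called peaks per ChIP library with SPP at a false discovery rate of 0.05. The tool versions are those of the submitters' processing notes. The deposited fold is a ratio of ChIP over input (maximum likelihood, with a lower bound), the deposited score is peak height not scaled to depth, and the false discovery rate, a q-value of each library's own list, was deposited beside them. The deposited interval files hold its −log10. Depth per library is not given in the files used here, so precision is given as SD over 3 libraries.

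Log2 folds were compared by limma 3.58.1 (R 4.3.3) over all 263 regions without block or centring, and library values by two-sided exact permutation tests (scipy 1.17.1). Named regions are the 10 highest in each medium, the 10 largest and smallest ratios, all of the TCA list and 2 from each end of every other list, plus neighbours of these and others shown for position or for the rule's limits, chosen after their values were seen. The members and gene lists were chosen with earlier results of these data known. No genome sequence was used, so motifs and gene distances were not analysed here.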

Additional observations from a re-analysis of the deposited data

How the results depend on the processing

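With centred libraries the difference of medians was -0.0063 and the calls were 74 higher in YPGly and 100 higher in YPD. With the centred score these were -0.10, 85 and 88, and ranks that did not overlap within libraries gave 85 and 92. Of the 58 named regions recomputed, those that changed sign with centred folds and with centred scores were USV1 (-0.48 and -0.53), TYE7 (-0.19 and -0.24), ECM10/TAH11 (-0.74 and -0.75), the stronger HSP60 region (-0.50 and -0.46), POX1/CHC1 (-0.35 and -0.20), PFK1 (-0.19 and -0.15) and ACO1 (-0.39 and -0.46). ECM10/TAH11 ranged from -0.048 to 0.12 when 1 library was left out, the lowest without YPGly replicate 1. The gap in log2 ratio between the 50 weakest and 50 strongest regions in YPD was 0.33 with an overlap of 100 bp, 0.34 with 1 position per list and 0.31 when ordered by YPD replicate 1, but -1.001 and -1.71 when ordered by both media or by YPGly fold, which also enters the ratio. It was -0.035 in the 164 members with positions within 20 bp, an alternative chosen after seeing the data, so its direction is not settled. The cause of these changes was not tested.

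Without 1 library, in turn, there were 135 to 146 calls higher in YPGly, 27 to 31 higher in YPD, differences of medians from 0.71 to 0.81, of SDs from 0.18 to 0.20, gaps by strength from 0.18 to 0.37 and differences against chromosome C of 0.06 to 0.11. With each region's own spread in an ordinary t-test, an alternative chosen after seeing the data, 133 and 23 were called, 132 and 22 of them by both fits. By this t-test the chromosome D NDE2 region (adjusted p = 0.14) and BTN2 (0.057) no longer passed, while RPL26B/TIM21 (0.039) now did. For 58 named regions, 838 of 864 recomputed values kept direction and side of the threshold. The numbering of replicates showed no pairing. The deviations from the group means correlated at -0.11, -0.18 and 0.14 for replicates 1, 2 and 3 of the media, and for 2 of 6 libraries the own number correlated best. In a paired fit with a block for replicate, the counts were 141 and 30 and the difference of medians 0.77 (exact sign-flip p = 0.25, the smallest possible).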
